A study of Mus musculus with 16 samples.

Results

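The genes described here encode 10 heat shock chaperones, chosen by symbol: Hspa1a, Hspa1b, Hspa8, Hspa5, Hsp90aa1, Hsp90ab1, Dnajb1, Dnaja1, Hsph1 and Hspd1. They are 10 of 53465 genes in a table of RNA-seq read counts from group 2 innate lymphoid cells (ILC2), tissue-resident lymphocytes that make type 2 cytokines. The cells were sorted from the duodenum of untreated C57BL/6 mice 6 to 10 weeks old, kept free of specific pathogens. The first 5 cm of intestine were digested for 30 minutes at 37 °C before sorting. The study compared 4 genotypes with 4 libraries each. Alox5 KO mice lack 5-lipoxygenase, which leukotriene synthesis needs, Il25 KO mice lack the cytokine IL-25, and St2 KO mice lack the IL-33 receptor ST2, encoded by Il1rl1. They were set against wild type (WT) mice. All 4 genotypes, WT included, were homozygous for the Il13 smart13 reporter allele. Mice without IL-25 or ST2 also carried 2 copies of the Arg1 Yarg reporter allele, which the labels do not give for Alox5 KO or WT.

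Heat shock chaperones hold unfolded proteins and help them to fold. Heat, oxidation and handling of tissue are known to activate the transcription factor HSF1, which turns on the inducible members within minutes, whereas other members are made all the time. Enzymatic digestion of tissue at body temperature is a known trigger of such transcripts together with immediate early genes such as Fos and Jun. The level of these transcripts in each library, and whether it differed between genotypes or only between libraries, is the question addressed here.

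The libraries held 2086864 to 3216937 counts, with a median of 2625205.5. The labels number 4 replicates per genotype and do not say whether these were separate animals. The p-values therefore rest on differences between libraries that may in part be technical. Sample codes in the labels fall into 3 sets: TS holds replicates 1 and 2 of every genotype, TT holds replicates 3 and 4 of Alox5 KO and WT, and TY those of Il25 KO together with St2 KO. The 4 TY libraries had 400 to 579 counts per 1000000 (CPM) of Xist, which is transcribed in female cells, and at most 0.688 CPM of the Y-linked Ddx3y, whereas the other 12 libraries had at most 3.35 CPM of Xist and at least 276 CPM of Ddx3y. Il25 KO and St2 KO therefore meet WT in the same set only in TS. Alox5 was at 4.78 to 11.98 CPM in Alox5 KO libraries and at 76.0 to 145 CPM in WT libraries. No library had a count of Il25, and Il1rl1 was at 126 to 208 CPM in libraries labelled St2 KO and at 169 to 246 CPM in WT libraries, so gene counts did not check those labels. The ILC2 markers summed to 6863 to 9499 CPM with all 16 genes detected, among them Gata3 at 527 to 681 CPM and Il7r at 998 to 1518 CPM. Markers of other cells were also counted. B and plasma cell markers summed to 754 to 2909 CPM, T cell markers to 749 to 1042 CPM and epithelial markers to 12.8 to 373 CPM. Lyz2, a macrophage marker, was at 0 to 8.96 CPM. Cd3e, in the T cell list, was only at 1.19 to 32.3 CPM, so most of that list's sum came from its other genes. Whether T cells or ILC2 made those transcripts was not tested.

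The inducible HSP70 pair, Hspa1a (chr17:34969190-34972156) and Hspa1b (chr17:34956436-34959238), are neighbouring single-exon genes on the minus strand of chromosome 17 in build GRCm38. They are near copies, and only 33.7% of the 50-base windows of Hspa1a transcripts and 37.7% of those of Hspa1b were found in no other annotated gene. Their promoters are as alike: over the 250 bases before the start site, 247 (98.8%) were the same base at the same position. The bases upstream of both genes are shown because these 2 transcripts moved together from library to library. The bases before a start site of Hspd1 and of Hspa5 stand beside them. These are examples of a heat shock element and of an endoplasmic reticulum stress element. All 4 are RefSeq sequences of build GRCm38.p6, 5′ to 3′ along the gene and ending at the base before the start site, with motif matches in capitals.
Hspa1a, chr17:34972157-34972406, minus strand: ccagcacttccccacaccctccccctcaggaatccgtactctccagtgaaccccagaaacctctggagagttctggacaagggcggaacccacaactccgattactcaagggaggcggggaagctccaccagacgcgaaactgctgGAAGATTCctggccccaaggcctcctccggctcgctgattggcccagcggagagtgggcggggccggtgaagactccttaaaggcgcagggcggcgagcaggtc
Hspa1b, chr17:34959239-34959488, minus strand: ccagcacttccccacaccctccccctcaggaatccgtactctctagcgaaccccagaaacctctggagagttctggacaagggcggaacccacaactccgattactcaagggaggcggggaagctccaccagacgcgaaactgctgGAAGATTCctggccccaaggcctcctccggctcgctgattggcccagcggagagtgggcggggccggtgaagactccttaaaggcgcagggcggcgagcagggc
Hspd1, chr1:55087933-55088182, minus strand: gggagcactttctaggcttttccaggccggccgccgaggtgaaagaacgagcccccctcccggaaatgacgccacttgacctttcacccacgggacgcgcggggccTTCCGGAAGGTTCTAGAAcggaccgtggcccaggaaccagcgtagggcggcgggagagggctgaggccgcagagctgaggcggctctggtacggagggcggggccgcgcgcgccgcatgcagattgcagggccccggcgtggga
Hspa5, chr2:34771840-34772089, plus strand: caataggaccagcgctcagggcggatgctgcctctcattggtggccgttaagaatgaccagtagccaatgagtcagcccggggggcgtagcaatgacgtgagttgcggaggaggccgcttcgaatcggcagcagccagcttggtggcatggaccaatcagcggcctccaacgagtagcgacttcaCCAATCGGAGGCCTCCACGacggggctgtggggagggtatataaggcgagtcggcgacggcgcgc

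The capitals in Hspa1a and Hspa1b mark 1 inverted pair of heat shock units (GAANNTTC) 104 bases before the start site. The capitals in Hspd1 mark 2 overlapping matches of the heat shock element, GAANNTTC followed by NNGAA, searched on both strands. Those in Hspa5 mark the endoplasmic reticulum stress element, CCAAT and CCACG with 9 bases between them, 65 bases before the start. Of the 10 genes, 7 had promoter windows in the RefSeq table, 12 windows of 300 bases in all; Hspa8, Hsp90aa1 and Hsp90ab1 did not. The heat shock element was in 0.603% of the 32851 windows of all genes, and among the chaperones in both windows of Hsph1 and in 1 of the 2 windows of Hspd1, the one shown. The Hspd1 bases shown lie within the gene model (chr1:55077835-55088243), before an inner start site. The window at the outer end of the gene held no heat shock element. The Hspa5 bases shown lie in part within its gene model, which starts at chr2:34771970. The 2 windows of Hsph1 overlap and hold the same match, 15 and 36 bases after their start sites. The endoplasmic reticulum stress element was in 0.119% of all windows and, among the chaperones, in that of Hspa5. An inverted pair, either GAANNTTC or the overlapping TTCNNGAA, was in 15.1% of all windows. No window of Dnajb1 held any of these spellings, and a match or its absence describes these letters only.

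No chaperone transcript passed the test between genotypes. All 10 were abundant enough to be tested among 11742 genes with edgeR's quasi-likelihood test and Benjamini-Hochberg adjustment at 0.05. In Alox5 KO against WT 0 of 10 passed, where 0.102% of all genes did, and in Il25 KO against WT 0 of 10, against 0.417% of all genes. The counts were 0 of 10 in St2 KO against WT, beside 0.298% of all genes, and 0 of 10 when Il25 KO was set against St2 KO, beside 1.24% of all genes. A test for any difference among the 4 genotypes also called 0 of 10, where it called 1.17% of all genes. At an unadjusted p under 0.05 the counts of chaperones were 0, 2, 0 and 3 of 10 in the 4 comparisons, where 7.17%, 9.3%, 7.49% and 11.3% of all genes passed. The median log2 fold change of the 10 was 0.05 in Alox5 KO against WT, 0.06 in Il25 KO against WT, 0.05 in St2 KO against WT, and 0.10 for Il25 KO over St2 KO, beside medians over all genes of 0.01, 0.00, 0.01 and -0.01. Both comparisons of Il25 KO and St2 KO with WT share the WT libraries, and the last comparison shares libraries with both.

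**Figure D1:**
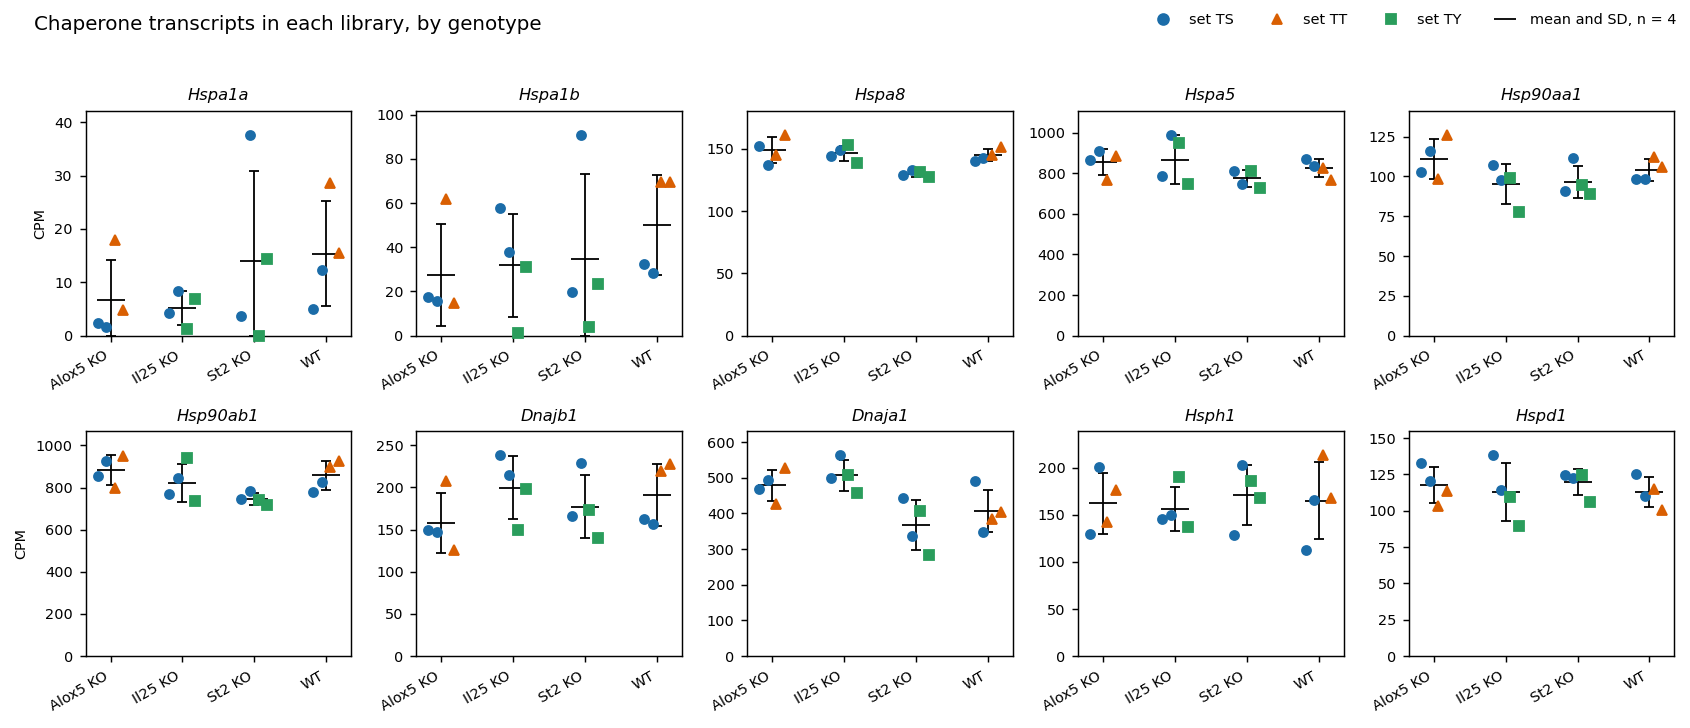
Transcript level in CPM (vertical axes, from 0) of each of the 10 chaperones in each of the 16 libraries, by genotype; point shapes give the sample-code set, and black bars the mean and SD of 4 libraries, with error bars that would pass below 0 ending there. Hspa1a and Hspa1b run over the whole height of their panels within a genotype, with Hspa1b between 1.22 and 90.8 CPM, whereas the other transcripts stay within a narrower band, such as Hspa8 between 127 and 161 CPM.

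Hspa1b, an inducible cytosolic HSP70, was at 17.5, 15.8, 61.9 and 14.9 CPM in Alox5 KO libraries 1 to 4, 57.6, 37.8, 1.22 and 30.9 CPM in Il25 KO, 19.9, 90.8, 4.02 and 23.4 CPM in the St2 KO libraries, and 32.4, 28.5, 69.6 and 69.5 CPM in WT. Its near copy Hspa1a was at 2.39, 1.55, 17.8 and 4.79 CPM in Alox5 KO, 4.32, 8.44, 1.22 and 6.83 CPM in Il25 KO, 3.71, 37.6, 0 and 14.5 CPM in the St2 KO libraries, and 5.02, 12.3, 28.6 and 15.5 CPM in WT. The genotypes overlapped for both genes, and for Hspa1b the libraries within every genotype differed more than the genotype means did. The highest library for both was St2 KO 2. The lowest were St2 KO 3 for Hspa1a, where a count of 0 allows a level of up to 1.10 CPM (3 counts, counting error only), and Il25 KO 3 for Hspa1b, where 3 reads were counted.

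Because reads may have been split or lost between near copies by the counting, the counts of Hspa1a and Hspa1b were also added. The summed level averaged 34.2 ± 30.4 CPM in Alox5 KO, 37.1 ± 25.2 CPM in Il25 KO, 48.5 ± 55.1 CPM in St2 KO and 65.4 ± 30.8 CPM in WT (SD, n = 4 each). The SD was close to or above the mean in Alox5 KO and St2 KO. The log2 fold change of the sum was -0.89 in Alox5 KO against WT, with a 95% interval of -2.15 to 0.36, 0.63 in Il25 KO against WT (-0.90 to 2.17), and 0.96 in St2 KO against WT (-0.49 to 2.41). Each interval reaches a change of more than 2-fold in 1 direction, so the test missing its threshold (edgeR, adjusted p of 0.775, 0.879 and 0.809) does not show that levels were alike. The fitted change in St2 KO has the opposite sign to the difference of the plain means. The fit compares libraries within sets; without the set term the change was -0.39, and without library St2 KO 2 it was -0.22. Likewise without the set term the sum was at -0.75 in Il25 KO against WT.

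**Figure D2:**
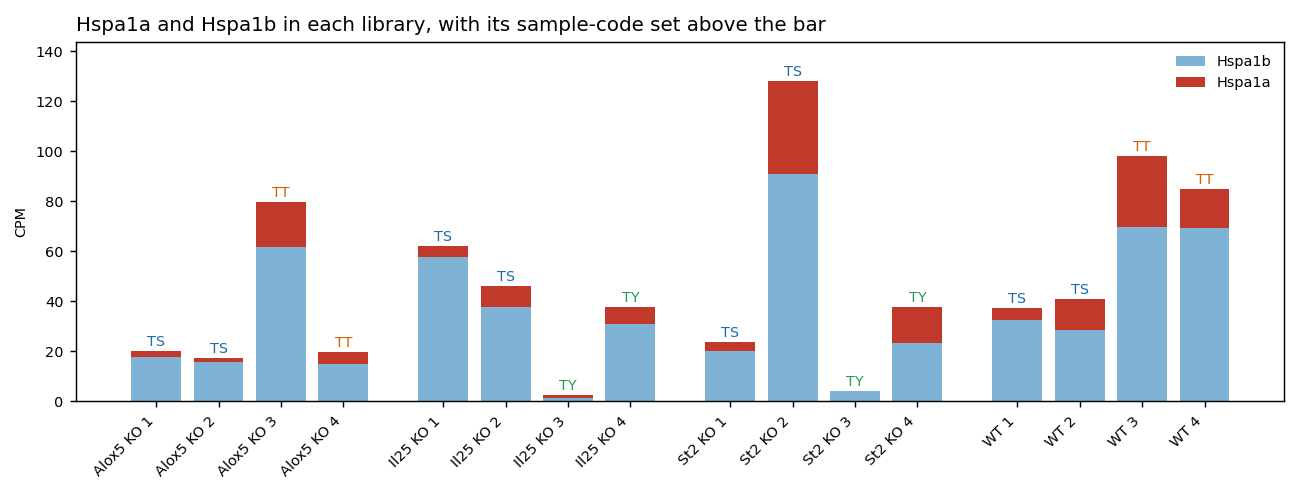
CPM of Hspa1a (red) stacked on Hspa1b (blue) in each library, grouped by genotype with Alox5 KO at the left and WT at the right; the letters above each bar give the sample-code set. The summed level was lowest at 2.44 CPM (Il25 KO 3) and highest at 128 CPM (St2 KO 2), and the 2 WT libraries of set TT stand at 98.2 and 85.0 CPM, above the 2 WT libraries of set TS at 37.5 and 40.9 CPM.

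The largest fitted fold changes of any chaperone lay between sets, although 0 of 10 passed a test over the 3 sets, where 0.119% of all genes did. Between pairs of sets 0 of 10 passed in TT against TS (0.0% of all genes) and 0 of 10 in TY against TS (0.136%). The sum averaged 70.6 ± 34.9 CPM in TT and 20.5 ± 20.0 CPM in TY, against 47.0 ± 36.1 CPM in TS (SD, n = 4, 4 and 8). Libraries within a set differed. In TY, Il25 KO 3 and St2 KO 3 were at 2.44 and 4.02 CPM, and Il25 KO 4 and St2 KO 4 at 37.7 and 37.8 CPM. In TT, Alox5 KO 4 was at 19.6 CPM, and Alox5 KO 3, WT 3 and WT 4 at 79.7, 98.2 and 85.0 CPM. Log2 fold changes of Hspa1b were 1.21 ± 0.51 (SE) in TT against TS and -1.75 ± 0.54 in TY against TS, with unadjusted edgeR p of 0.0308 and 0.0049 and adjusted p of 0.669 and 0.236. Those of Hspa1a were 1.67 ± 0.74 and -1.24 ± 0.72, with adjusted p of 0.673 and 0.634. Dnajb1, the inducible J-domain partner of HSP70, was at 0.34 ± 0.14 and -0.35 ± 0.13, with adjusted p of 0.664 and 0.347. At an unadjusted p under 0.05 in the test over all sets were Hspa1b (0.0036), Dnajb1 (0.0074) and Hspa1a (0.0351), 3 of 10 genes where 9.9% of all genes passed. TT and TY hold different genotypes, and the TY libraries were the ones with Xist, so what goes with set TY and what goes with sex cannot be told apart.

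**Figure D3:**
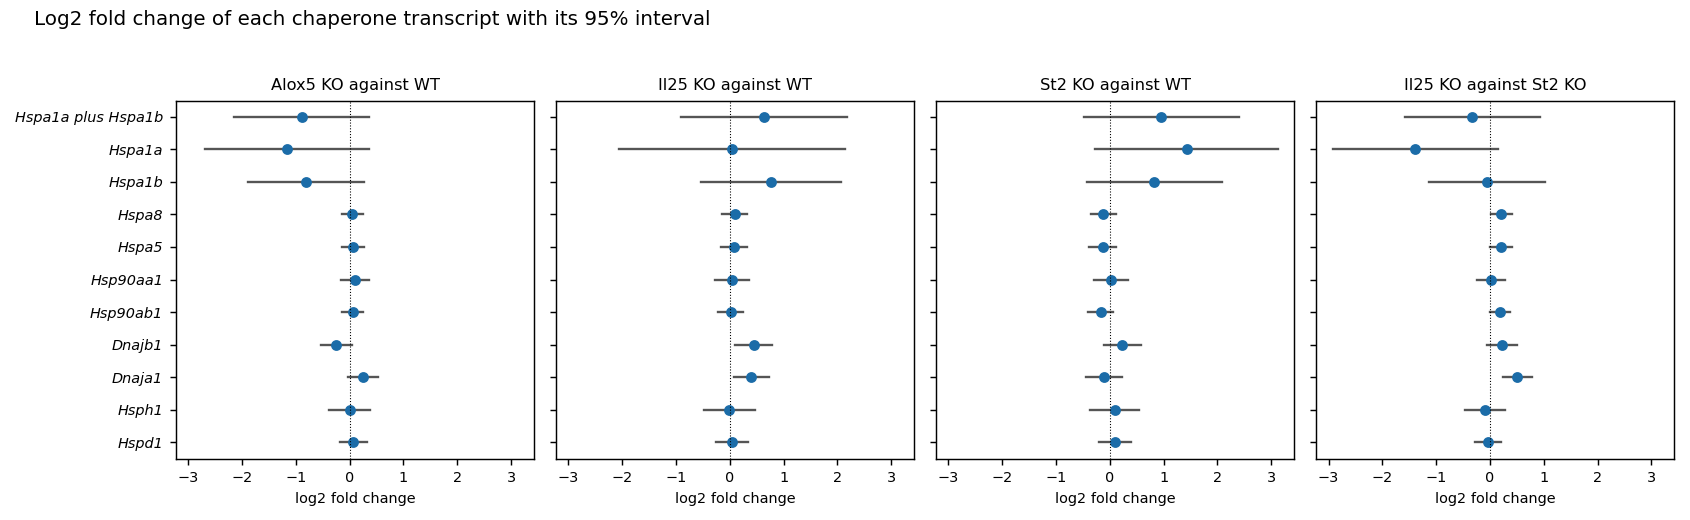
Fitted log2 fold change (points) with its 95% interval (lines) for each chaperone and for the sum of Hspa1a and Hspa1b, in 4 comparisons with the first-named genotype over the second. The intervals of Hspa1a and Hspa1b are several log2 units wide, and most others stay within 0.5 of 0; those of Dnajb1 and Dnaja1 in Il25 KO against WT, and of Dnaja1, Hspa8 and Hspa5 in Il25 KO against St2 KO, do not reach 0, although none passed after adjustment.

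Among the J-domain proteins, which deliver clients to HSP70 and start its ATP hydrolysis, Dnaja1 came closest to a difference between genotypes. It was at 467, 492, 426 and 528 CPM in Alox5 KO, 499, 562, 507 and 457 CPM in Il25 KO, 442, 337, 408 and 283 CPM in the St2 KO libraries, and 489.8, 348, 385 and 404 CPM in WT. Every Il25 KO library was above every St2 KO library. Such a lack of overlap between these 2 groups was found for 2 of 10 chaperones, Dnaja1 and Hspa8, and for 5.95% of all genes. The log2 fold change of Dnaja1 in Il25 KO against St2 KO was 0.51 ± 0.13 (SE), with an edgeR adjusted p of 0.0638. It was 0.50 within set TS and 0.52 within set TY, and a test of the difference between these sets called no gene (0.0% of all genes). The adjusted p was 0.0104 with DESeq2, and with edgeR 0.0441 without St2 KO 1, 0.0292 without St2 KO 3 and 0.0478 without WT 1. It was above 0.05 in every other fit and ranged up to 0.225 with other single libraries left out. With only the groups compared it was 0.115, in set TS alone 0.467 and in set TY alone 0.414 (edgeR). Against WT, Dnaja1 was at 0.25 ± 0.13 in Alox5 KO, 0.40 ± 0.16 in Il25 KO and -0.11 ± 0.16 in St2 KO, with adjusted p of 0.716, 0.407 and 0.920.

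Other measures of the same Il25 KO and St2 KO libraries stand beside this. Immediate early genes, in a list of 30 dissociation-associated genes without chaperones of which 29 were tested, averaged 7.36 to 7.74 on the log2(CPM + 1) scale in Il25 KO and 6.64 to 6.95 in St2 KO. With edgeR's adjusted p under 0.05, 15 of those 29 were called higher in Il25 KO than in St2 KO and 0 lower, beside 1.24% of all genes called in either direction, and by sign alone 25 were above 0 and 4 below. In St2 KO against WT 8 of the 29 were called lower and 0 higher, beside 0.298% of all genes. Zfp36, which destabilises cytokine mRNAs, was at 516 to 541 CPM in Il25 KO, against 68.8 to 129 CPM in St2 KO, and Jun, an AP-1 subunit, at 275 to 354 CPM in Il25 KO, against 54.1 to 148 CPM in St2 KO. The ILC2 markers summed to 7871 to 8459 CPM in Il25 KO, against 6863 to 7829 CPM in St2 KO, with 12 of the 16 above 0 by sign and 0 passing edgeR's adjusted test, where Id2 came closest with an adjusted p of 0.0573. The ILC2 list includes Il1rl1, which encodes ST2, at 207 to 420 CPM in Il25 KO and 126 to 208 CPM in St2 KO. It also includes Arg1, the gene of the Yarg reporter allele. Against WT, Arg1 was at a log2 fold change of -4.22 in Il25 KO and -4.19 in St2 KO. The B and plasma cell markers summed to 1995 to 2798 CPM in Il25 KO, against 754 to 2159 CPM in St2 KO, ranges that overlap. Of the 13 of them tested, 0 were called higher and 1 lower in Il25 KO than in St2 KO. That was Cd79b, part of the B cell receptor, at a log2 fold change of -0.61 ± 0.13 (SE) with an edgeR adjusted p of 0.0229. The other 12 were above 0 by sign, and the median log2 fold change of the 13 was 0.78, where all genes had -0.01. The part of these measures in the Dnaja1 difference was not tested, and in bulk samples fewer cells of a type and less RNA per cell cannot be told apart. Dnaja1 also shares 608 exonic bases, 7.05% of its own, with Smu1 on the opposite strand. Smu1 differed by 0.10 ± 0.08 in Il25 KO against St2 KO, with an edgeR adjusted p of 0.713.

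Dnajb1, induced by HSF1, was at 149, 148, 208 and 126 CPM in Alox5 KO, 238, 214, 149 and 198 CPM in Il25 KO, 167, 228, 173 and 140.4 CPM in the St2 KO libraries, and 163, 157, 219 and 227 CPM in WT. The genotypes overlapped, and the high libraries were Alox5 KO 3, St2 KO 2, Il25 KO 1, 2 and 4 and WT 3 and 4. The log2 fold change in Il25 KO against WT was 0.45 ± 0.16 (SE), with an unadjusted edgeR p of 0.0138 and an adjusted p of 0.368; without the set term it was 0.10. In Alox5 KO against WT it was -0.25 ± 0.14 and in St2 KO against WT 0.23 ± 0.16, and the sign in St2 KO turned without the set term, to -0.12.

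The constitutive members of the HSP70 family differed little. Hspa8, which encodes the cytosolic HSC70, was at 152, 137, 145 and 161 CPM in Alox5 KO, 144, 149, 153 and 139 CPM in Il25 KO, 129, 133, 131 and 127 CPM in the St2 KO libraries, and 139.8, 143, 145 and 152 CPM in WT. All 4 St2 KO libraries lay below all 12 others, also in TMM-scaled CPM. The share of all genes with a gap from all 12 others was not counted. The St2 KO libraries were among the deepest, with totals of 2737714 to 3216937 counts against 2086864 to 2783653 in the other 12. In raw counts Hspa8 had no such gap, with 360 to 427 reads in St2 KO and 336 to 406 in the others. Between the 4 St2 KO and the 4 WT libraries alone, only Hspa8 of the 10 chaperones had a gap, which 8.47% of all genes had. None had one in Alox5 KO or Il25 KO against WT, where 3.84% and 6.78% of all genes did. The log2 fold change of Hspa8 was -0.12 ± 0.11 in St2 KO against WT (edgeR adjusted p of 0.857) and 0.21 ± 0.09 in Il25 KO against St2 KO (adjusted p of 0.372). Only 60.6% of its 50-base windows were found in no other gene, with the annotated Gm15459 sharing the most, so part of its reads may have been lost or shared in counting.

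Hspa5, the HSP70 of the endoplasmic reticulum known as BiP, averaged 857 ± 63.9 CPM in Alox5 KO, 868 ± 119 CPM in Il25 KO, 775 ± 42.8 CPM in St2 KO and 825 ± 43.3 CPM in WT (SD, n = 4 each). Its libraries spanned 727 to 988 CPM, with St2 KO 4 lowest and Il25 KO 2 highest, and the genotypes overlapped. Its log2 fold changes against WT were 0.07 ± 0.10 in Alox5 KO, 0.08 ± 0.12 in Il25 KO and -0.13 ± 0.12 in St2 KO. In Il25 KO against St2 KO it was at 0.21 ± 0.10, with an edgeR adjusted p of 0.420. No other annotated gene held any of its 50-base windows.

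The cytosolic HSP90 proteins mature kinases and steroid receptors. The constitutive Hsp90ab1 averaged 881 ± 70.6 CPM in Alox5 KO, 822 ± 90.3 CPM in Il25 KO, 747 ± 28.0 CPM in St2 KO and 858 ± 68.3 CPM in WT (SD, n = 4 each). The highest St2 KO library stood at 783 CPM and the lowest WT library at 778 CPM. Its log2 fold change in St2 KO against WT was -0.17 ± 0.11 (edgeR adjusted p of 0.792). The heat-inducible Hsp90aa1 averaged 111 ± 12.5 CPM in Alox5 KO, 95.5 ± 12.5 CPM in Il25 KO, 96.5 ± 10.3 CPM in St2 KO and 104 ± 6.94 CPM in WT, and its log2 fold changes against WT were 0.11 ± 0.12, 0.04 ± 0.15 and 0.02 ± 0.15 in those knockouts. Of its 50-base windows 52.5% were found in no other gene, with Gm12346 sharing the most. Per kb of exon Hsp90ab1 was the most abundant of the 10 transcripts at 276 CPM per kb, followed by Hspa5 at 197, Dnajb1 at 56.6, Dnaja1 at 51.0, Hspd1 at 43.8, Hspa8 at 33.1, Hsp90aa1 at 25.9, Hsph1 at 22.5, Hspa1b at 12.8 and Hspa1a at 3.47 CPM per kb. Shared sequence limits the order among Hspa8, Hsp90aa1, Hspd1 and the inducible pair.

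Hsph1, an HSP110 protein that exchanges nucleotide on HSP70, was at 130.2, 201, 142 and 176 CPM in Alox5 KO, 146, 149.7, 190.2 and 138 CPM in Il25 KO, 129, 203, 186 and 168 CPM in the St2 KO libraries, and 113, 166, 213 and 168 CPM in WT. The genotypes overlapped, and genotype and set accounted for 14.9% of the variance of its log2(CPM + 1), the smallest share of the 10. Its log2 fold changes against WT were -0.00 ± 0.18 in Alox5 KO, -0.01 ± 0.22 in Il25 KO and 0.09 ± 0.22 in St2 KO. Hspd1, the mitochondrial chaperonin HSP60, averaged 118 ± 12.4 CPM in Alox5 KO, 113 ± 20.0 CPM in Il25 KO, 119.5 ± 8.87 CPM in St2 KO and 113 ± 10.2 CPM in WT (SD, n = 4 each), with log2 fold changes against WT of 0.07 ± 0.12, 0.05 ± 0.14 and 0.09 ± 0.14. Its partner co-chaperonin Hspe1, which shares 112 exonic bases with it on the opposite strand, was at 59.1, 49.9, 39.9 and 46.7 CPM in Il25 KO, against 32.4, 40.1, 23.0 and 24.1 CPM in St2 KO. Hspe1 had a log2 fold change of 0.75 ± 0.19 in Il25 KO against St2 KO with an edgeR adjusted p of 0.0582, while Hspd1 was at -0.04 ± 0.11.

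The spread between libraries set Hspa1a and Hspa1b apart from the other 8 chaperones. Over the 16 libraries the SD of log2(CPM + 1) was 1.43 for both Hspa1a and Hspa1b, at the 98.8th percentile of all tested genes, where the median gene had 0.34. The other 8 were below that median. Hspa8 had an SD of 0.097, at the 1.40th percentile, and the others lay between 0.13 for Hspa5 and 0.29 for Dnajb1. After genotype and set were taken out, the SD of Hspa1a was still 1.33 and that of Hspa1b 1.21, at the 98.9th and 97.9th percentiles. Counting error alone would give 0.55 for Hspa1a, with 455 reads in all libraries, and 0.28 for Hspa1b, with 1567 reads. Less abundant genes spread more in general, with a median SD of 0.50 among the 4849 genes averaging 5 to 50 CPM. The more abundant band of mean CPM that holds the other 8 has 3273 genes, with a median SD of 0.18. Against that median Dnajb1 (0.29), Hsph1 (0.27) and Dnaja1 (0.26) were above. Hspa8, Hspa5, Hsp90ab1, Hspd1 and Hsp90aa1 were below it. The 10 transcripts together took up 2394 CPM in St2 KO 4 to 3166 CPM in Il25 KO 2. In proportion to its level, the sum of all 10 moved far less than that of Hspa1a and Hspa1b. The pair averaged 46.3 CPM of the 2849 CPM of all 10, so it bears little on that sum.

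**Figure D4:**
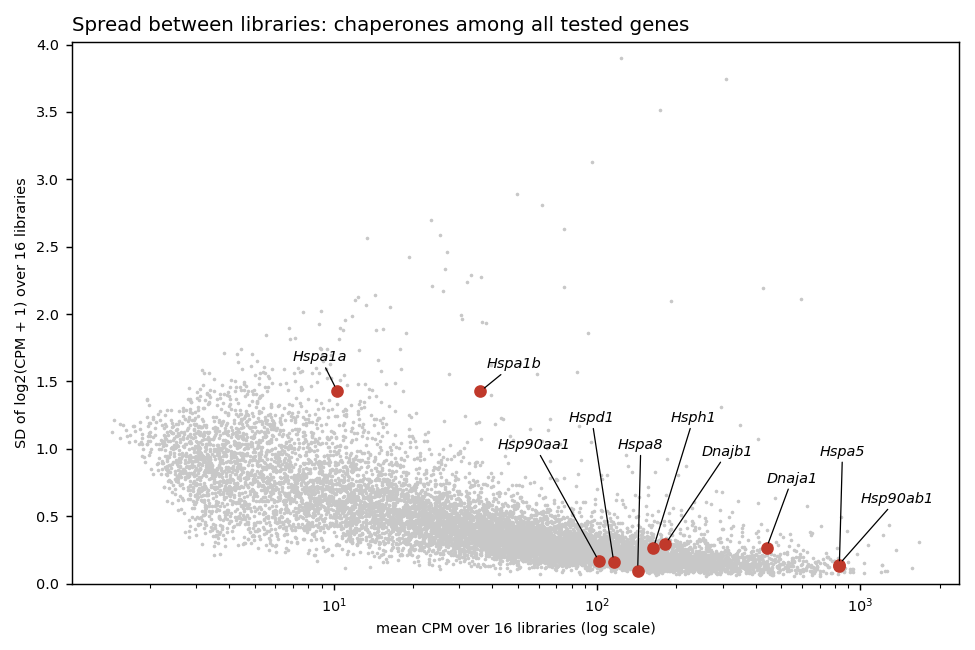
SD of log2(CPM + 1) over 16 libraries (vertical axis) against mean CPM (horizontal log axis) for all 11742 tested genes (grey) and the 10 chaperones (red). Hspa1a and Hspa1b stand above most genes of their abundance at an SD of 1.43, and the other 8 lie at 0.29 or below, within the band of genes of their abundance.

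From library to library a few pairs of chaperones moved together, not all 10. Of the 45 pairs, 24 had a positive and 21 a negative Pearson correlation of log2(CPM + 1) over 16 libraries, with a median r of 0.02. Only 5 pairs passed a permutation test with Benjamini-Hochberg adjustment over the 45 for both Pearson and Spearman. The permutations shuffled all 16 libraries, so differences between genotypes or sets that 2 transcripts share count as moving together. Hspa1a and Hspa1b, which share sequence, had r = 0.824 and rho = 0.856 (permutation, adjusted p of 0.00315 and 0.0018), and r = 0.739 without the 2 libraries farthest from the median. Hspa1b and Dnajb1 had r = 0.667 and rho = 0.794 (permutation, adjusted p of 0.0241 and 0.00525). Without Il25 KO 3 and St2 KO 3 their r was 0.903. Within the 8 libraries of set TS it was 0.888, and that of Hspa1a and Hspa1b 0.802 (permutation, unadjusted p of 0.00184 and 0.016).

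The other 3 pairs held none of Hspa1a, Hspa1b and Dnajb1. Hspa8 and Hsp90ab1 had r = 0.774 and rho = 0.809 (permutation, adjusted p of 0.0131 and 0.00525). Hsp90aa1 and Hsp90ab1 had r = 0.713 and rho = 0.747 (adjusted p of 0.02 and 0.0135), and Hspa5 and Dnaja1 r = 0.710 and rho = 0.715 (adjusted p of 0.0224 and 0.0225). Their r was 0.416, 0.519 and 0.690 within set TS (permutation, unadjusted p of 0.304, 0.185 and 0.0591), and 0.663, 0.613 and 0.615 without the 2 farthest libraries. The lowest correlation of all was that of Hspa1a with Dnaja1 at r = -0.520 and rho = -0.571 (permutation, adjusted p of 0.214 and 0.139). After genotype and set were taken out, the r of that pair was -0.831. It was then 0.764 for Hspa1a and Hspa1b and 0.609 for Hspa1b and Dnajb1. For Hspa8 and Hsp90ab1 it was 0.573, for Hsp90aa1 and Hsp90ab1 0.720, and for Hspa5 and Dnaja1 0.621. Pairs that had not passed also reached -0.808 (Hspa1b and Hspa5) and 0.767 (Hsp90aa1 and Hsph1). These values were not tested. Sets TT and TY hold 4 libraries each, too few for a value of their own.

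**Figure D5:**
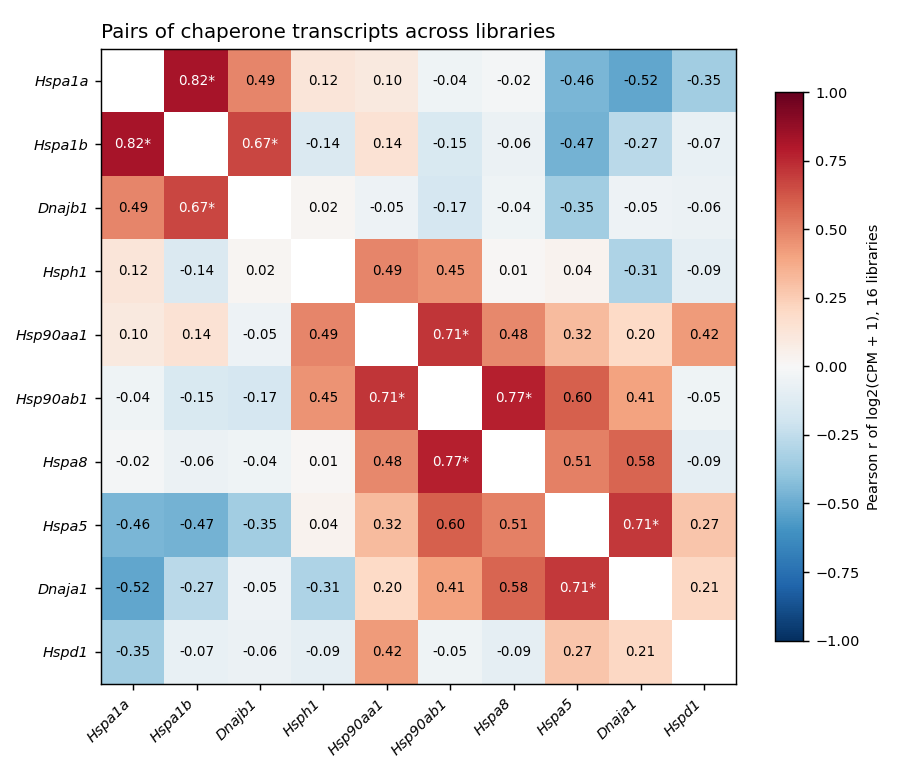
Pearson r of log2(CPM + 1) over 16 libraries for each pair of chaperone transcripts, in colour and as a number; an asterisk marks the 5 pairs whose adjusted permutation p was under 0.05 for both Pearson and Spearman. Hspa1a, Hspa1b and Dnajb1 form 1 warm block and Hsp90aa1, Hsp90ab1, Hspa8, Hspa5 and Dnaja1 another, with r between -0.52 and 0.14 across the 2 blocks.

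Each chaperone was also set against 3 measures of the library, 30 relations in all. The mean of the immediate early genes was taken over the 12 libraries other than St2 KO, which stand apart in it. None of the 10 passed there; Dnaja1 had r = 0.708 and rho = 0.678 (permutation, adjusted p of 0.0975 and 0.184), and Hspa1b r = -0.514 and rho = -0.119 (adjusted p of 0.242 and 0.897). The r of Hspa1b moved to 0.05 without Il25 KO 3 and WT 3 and rests on those libraries. B and plasma cell markers, over the 13 libraries other than 3 with low values (Alox5 KO 1 and 2 and St2 KO 1), passed for none of the 10. Total counts, which were high in St2 KO, passed for 2 of 10. Hspa8 had r = -0.819 and rho = -0.806 (permutation, adjusted p of 0.0015 and 0.00465) and Hsp90ab1 r = -0.714 and rho = -0.818 (adjusted p of 0.0138 and 0.00465), and their r was -0.737 and -0.601 without the 2 farthest libraries.

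CPM has the total in its denominator, so these 2 relations were also looked at in counts. Across libraries the slope of log2 count on log2 total was 0.43 for Hspa8, 0.29 for Hsp90ab1 and 0.09 for Dnaja1, against a median of 1.15 over the 9451 genes averaging at least 10 CPM. Hsp90ab1 and Hspa5 were also among the 122 genes with at least 0.5 reads per exonic base, whose median slope was 0.29. What part of the spread of these transcripts goes with that was not tested. Slopes above the median of 1.15 were those of Hspa1b (4.24), Hspa1a (3.60), Dnajb1 (1.92) and Hspd1 (1.18). In CPM, Hspa1b, Hspa1a and Dnajb1 had r of 0.295, 0.256 and 0.441 with total counts, and none of these passed. After genotype and set were taken out, these r were 0.777, 0.641 and 0.776, which were not tested.

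Other genes of the stress and folding pathways gave no call either. The shares of all genes called were 0.102% in Alox5 KO, 0.417% in Il25 KO and 0.298% in St2 KO against WT. The share was 1.24% for Il25 KO over St2 KO. At such shares lists of this size may hold no call without standing apart from other genes. No gene was called in any of the 4 comparisons among 7 tested genes of HSF1 and its regulators, 32 of 35 cytosolic co-chaperones and small heat shock proteins, 26 endoplasmic reticulum chaperones and unfolded protein response genes, 11 mitochondrial chaperones and proteases, 14 subunits of the TRiC chaperonin and prefoldin, or 12 of 14 ubiquitin and oxidative stress genes. Hsf1 itself ranged over 133 to 240.3 CPM and differed by 0.06 in Alox5 KO, 0.25 in Il25 KO and 0.14 in St2 KO against WT on the log2 scale. The HSP90 cofactor Stip1, which hands clients from HSP70 to HSP90, was at -0.03, 0.03 and -0.02 in those knockouts. Hsp90b1, the HSP90 of the endoplasmic reticulum, was at -0.03, -0.07 and -0.11, and Hspa9, the mitochondrial HSP70, at -0.06, 0.22 and 0.18. All 14 TRiC and prefoldin genes had a fold change above 0 in Alox5 KO against WT, with a median of 0.11 where all genes had 0.01, and Cct8, a TRiC subunit, was at 0.03 with an edgeR adjusted p of 0.943. Their mean log2(CPM + 1) overlapped, at 7.55 to 7.85 in Alox5 KO libraries and 7.51 to 7.63 in WT libraries. By sign 9 were above 0 and 5 below in Il25 KO against WT, 3 and 11 in St2 KO against WT, and 2 and 12 in set TY against TS.

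The genes whose log2(CPM + 1) was most like the mean z-score of the 10 chaperones over 16 libraries, among 9441 other genes averaging at least 10 CPM, were Il7 (r = 0.845), Gab2 (0.838), Muc1 (0.806), Ndufb6 (0.785), Lman2 (0.781), Timm17a (0.758), Cxcl10 (0.755) and Cope (0.755). Most like the sum of Hspa1a and Hspa1b were Stambpl1 (r = 0.878), Gm26669 (0.823), Cdkn2d (0.819), Cby1 (0.779), Erlin1 (0.776), Tmpo (0.775), Gemin6 (0.775) and Zfp873 (0.774). Those values were picked as the highest of many and are a description over libraries that share sets. Within set TS the r of Erlin1 was 0.180 and that of Cdkn2d 0.805, and without the 2 farthest libraries they were 0.187 and 0.755.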

How the data were processed

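The deposited table gives read counts per gene from duodenal ILC2 libraries made with a Nextera XT protocol, per the labels. The submitters' processing notes name build GRCm38 and the tools FastQC 0.11.3, Picard 1.134, HTSeq 0.4.1 and STAR 2.4.2a, without order or settings; whether duplicates were removed, how reads matching several genes were treated and whether counting used strand are not given in the sources used here. Such choices bear on near copies such as Hspa1a and Hspa1b and on genes that overlap on opposite strands. Of 53471 rows, 6 with repeated identifiers were dropped, and 0.184% of counts lay in rows without a symbol. CPM is the count over the column total, times 1000000.

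Counts of all genes were tested in edgeR 4.0.16 (R 4.3.3, limma 3.58.1; TMM scaling, low-count filter by genotype, 11742 genes kept) with genotype and sample-code set as terms over 16 libraries and 10 residual degrees of freedom, and p-values were adjusted over all genes; DESeq2 1.42.0 was an alternative. The procedure was tested on simulated data. Standard errors follow from the fold change and F. Relations used 100000 permutations, 2-sided, on log2(CPM + 1), with libraries shuffled across genotypes and sets. The labels and series text state no design. Replicate numbers recur in every genotype, but of 24 pairs of same-numbered libraries 3 had deviations that correlated above 0.1 (range -0.08 to 0.20), so the numbers were not taken as pairs. Gene models and transcripts came from GENCODE on GRCm38 and promoters from RefSeq. The 10 genes and all lists were chosen with earlier results of these data known. The text names all 10 chaperones, up to 3 most abundant genes or 4 most changed genes of another list, and the 8 genes most like a pattern; Hspe1 and Smu1 were added for their overlap with a chaperone gene.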

Additional observations from a re-analysis of the deposited data

Results flagged for a closer look

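Of 44 values of a transcript in the 4 libraries of a genotype, 3 had a library far from the other 3, where chance alone gives about 1 in 20. Hspa1b was at 61.9 CPM in Alox5 KO 3, the highest of its genotype, with the other 3 libraries between 14.9 and 17.5 CPM. The sum of Hspa1a and Hspa1b in the same library was 79.7 CPM, with the others between 17.4 and 19.9 CPM; these 2 values are not independent. Hspd1 was at 106 CPM in St2 KO 4, the lowest of its genotype, with the others between 122 and 125 CPM.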

How the results depend on the processing

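Chaperones called were 0 in Alox5 KO, Il25 KO and St2 KO against WT under every alternative run; for Il25 KO over St2 KO they were 1, Dnaja1, with DESeq2 and 0 to 1 with 1 library left out. All genes called were 12, 49, 35 and 146 in the 4 comparisons. With DESeq2 they were 53, 82, 67 and 246, and with edgeR's older quasi-likelihood mode 5 in Alox5 KO against WT. Without the set term they were 95 in Il25 KO and 58 in St2 KO against WT. With the groups compared alone they were 22 in Alox5 KO and 9 in Il25 KO against WT, and 96 for Il25 KO over St2 KO. Set TS alone gave 3 in Alox5 KO and 9 in Il25 KO against WT and 33 for Il25 KO over St2 KO, where set TY alone gave 30. Leaving out Alox5 KO 1 and 2 and St2 KO 1, low in plasma cell transcripts, they were 3, 26, 21 and 90. With 1 library left out they ranged over 6 to 20, 31 to 53, 19 to 45 and 80 to 168. With the replicate block they were 21 in Alox5 KO against WT, and the block called no chaperone.

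No chaperone log2 fold change that turned sign passed the test with either sign. Without the set term they turned, in Il25 KO against WT, for Hspa1a (-1.50), Hspa1b (-0.58), their sum (-0.75), Hsp90aa1 (-0.086) and Hsp90ab1 (-0.024), and in St2 KO against WT, for Hspa1a (-0.090), Hspa1b (-0.49), their sum (-0.39), Dnajb1 (-0.12) and Hsp90aa1 (-0.11). In Il25 KO against WT, Hspa1a turned to -0.41 with these groups alone, -0.42 in set TS and -0.043 without the 3 plasma-low libraries. Hsph1 there turned to 0.11, 0.11 and 0.18 in those fits, 0.0085 with the replicate block and 0.0023 with DESeq2, and Hsp90ab1 to -0.015 with unscaled library sizes. In Alox5 KO against WT, Hsph1 turned to 0.0023 with DESeq2, 0.0061 in the older mode and 0.25 in set TS, and Hsp90ab1 to -0.041 in set TT and -0.041 without the plasma-low libraries. For Il25 KO over St2 KO, Hspa1b turned to 0.054 with DESeq2, 0.030 in the older mode and 0.31 in set TY, the sum to 0.015 in set TY, Hspd1 to 0.080 in set TS, and Hsp90aa1 to -0.019 unscaled, -0.020 in set TY and -0.039 without the plasma-low libraries. With 1 library left out, signs varied in St2 KO against WT for Hspa1a (-0.33 to 2.15), Hspa1b (-0.25 to 1.35) and their sum (-0.22 to 1.52), each lowest without St2 KO 2, and for Dnaja1 (-0.26 to 0.069), Hsp90aa1 (-0.068 to 0.090) and Hsph1 (-0.14 to 0.24). They varied in Il25 KO against WT for Hspa1a (-0.48 to 0.77), Hsph1 (-0.22 to 0.10), Hsp90ab1 (-0.035 to 0.10), Hspa5 (-0.060 to 0.19) and Hspd1 (-0.055 to 0.094), and in Alox5 KO against WT for Hsph1 (-0.21 to 0.13) and Hsp90ab1 (-0.0036 to 0.14). For Il25 KO over St2 KO they varied for Hspa1b (-0.50 to 0.85), the sum (-0.79 to 0.63), Hsph1 (-0.21 to 0.051), Hspd1 (-0.11 to 0.053) and Hsp90aa1 (-0.038 to 0.11). The cause of these shifts was not tested. Depth limits Hspa1a most, with 0 to 121 reads per library.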
